A study of Danio rerio with 20 samples.

Results

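The 150 loci described here were selected on their deposited values, because their reads in the zebrafish heart were lowest at 1.5 days post cryoinjury (dpci). Some of them were also below the non-injured level at later times. Each of them had a higher value in all 4 libraries without injury and in all later libraries, taken at 3, 7, and 14 dpci, than in any of the 4 libraries at 1.5 dpci. They were taken from 66128 loci of one table. Of these, 16199 had a mean of at least 100 over the 20 libraries, 518 of the 16199 were lowest at 1.5 dpci without overlap, and 153 of the 518 also lay at least 1 below the lowest other group on the scale of log2(value + 1). The 150 with the largest difference were kept. None of the 153 was among the 100 loci with the highest non-injured mean, which the choice left out.

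Gene expression was measured by RNA sequencing of the ventricular apex in 5 groups of 4 libraries: hearts without injury, and hearts at 1.5, 3, 7, and 14 dpci. All groups carry the same genotype label, WT, and no group received a drug. The fish were males and females aged 5 to 12 months, and each library pooled 3 to 4 apexes, so a library averages several animals and its fish cannot be told apart. The p-values below measure the spread between such pools. The methods name reporter lines for the study as a whole, and which line gave the apexes for sequencing is not given in the sources used here.

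In cryoinjury a cold probe kills part of the ventricle. Zebrafish replace the lost muscle, whereas adult mammals keep a scar. The injured apex is a mixture of tissues that changes from day to day: dead muscle is cleared by immune cells, a temporary matrix with fibrin and collagen forms, the lining and covering layers of the heart grow over the wound, and heart muscle cells at its border divide. In such bulk samples, fewer cells of a type and less RNA per cell cannot be told apart.

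The loci are known here only by number. A locus is a stretch of the genome to which overlapping assembled transcripts were merged. The table's gene name column is out of step with its rows: the positions listed beside the names change chromosome 7853 times in the order deposited and 25 times once the list is put in numerical order. No locus was therefore given a gene name, a position, a sequence or a function, and the tissue label was not checked against marker genes. Values are reads per locus divided by 1 size factor for each library, without division by length, so levels are compared between libraries and not between loci. The reads recovered from the values ranged from 19349171 to 32939803 per library in 19 libraries. In a principal component analysis the first component placed non-injured replicates 1 and 2 with all libraries at 7 and 14 dpci, and non-injured replicates 3 and 4 with all libraries at 1.5 and 3 dpci. Each count over all members below that compares groups is therefore also given with only one side as controls or with the split in the model. This was done where it moved the count by over 1.5 times.

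The depth of the drop varied widely between loci. The values that chose the members are given as a description without a test. The difference between the lowest other group and 1.5 dpci ranged from 1.01 to 4.67 on the log2 scale, with a median of 1.50. It was at least 2 in 41 loci and at least 3 in 10, and under 1.5 in 76. Set against non-injured hearts, the mean value was between 1.98 and 53.1 times higher without injury than at 1.5 dpci, with a median of 4.51 times and quartiles of 2.84 and 8.36. At the edge of the choice, the last locus inside had a difference of 1.01, with a highest value of 105.5 at 1.5 dpci and a lowest value of 113.3 elsewhere. The first locus outside differed by 1.003, with 91.5 and 125.1 for the same values.

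The members held moderate numbers of reads, which depend on the length of a locus as well as on its expression. Their mean over the 20 libraries ranged from 105.5 to 19183, with a median of 371. There were 110 with a mean under 1000, 37 from 1000 to 10000, and 3 above. Among all 16199 loci with a mean of at least 100, the median was 483 and 70.7% lay under 1000. The low level at 1.5 dpci still rested on reads: summed over the 4 libraries, members had from 29 to 40415 reads, with a median of 393. Only 4 members had 3 reads or fewer in any 1.5 dpci library, each of them in replicate 3, and none had so few in all 4.

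The members' total and their median describe the depth of the drop in each library. That they are lowest at 1.5 dpci follows from the choice of loci and is no further evidence. The members together held 0.781% ± 0.0548 (SD, n = 4) of a library's summed values in non-injured hearts. Their share at 1.5 dpci was 0.228% ± 0.0228 (SD, n = 4). It was 0.664% ± 0.0753 at 3 dpci, followed by 0.953% ± 0.111 at 7 dpci and 1.04% ± 0.133 at 14 dpci (SD, n = 4 each). The highest library at 1.5 dpci had 0.247%, and the lowest library of any other group had 0.560%, at 3 dpci. The median member lay between 6.30 and 6.57 on the log2 scale in the 4 libraries at 1.5 dpci. Its range was 8.54 to 8.95 in non-injured hearts and 8.02 to 8.66 at 3 dpci. At 7 dpci it ran from 8.42 to 8.97, and at 14 dpci from 8.84 to 9.11. The median over all 16199 loci was between 8.82 and 8.87 in the 5 groups.

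**Figure D1:**
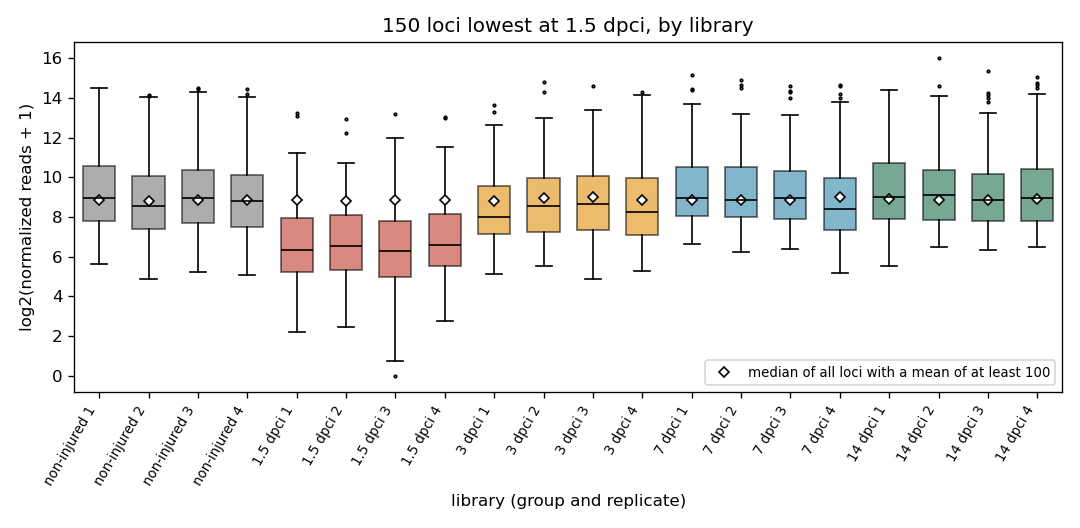
Values of the 150 loci in each of the 20 libraries, as log2(normalized reads + 1). Boxes span the quartiles with the median as a line, whiskers reach 1.5 times the box height, points lie beyond them, and diamonds mark the median of all 16199 loci with a mean of at least 100. The boxes at 1.5 dpci, with medians from 6.30 to 6.57, lie below all others, and the diamonds stay level.

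Library 3 at 1.5 dpci, the deepest of the 19 libraries with recovered reads at 32939803, gave the lowest value of its group in 68 of the 150 members, whereas it was the lowest of its group in 21.2% of all 16199 loci. Its members' share, 0.198%, was the lowest of the 20 libraries. The other 3 libraries at 1.5 dpci had between 0.221% and 0.247%. Leaving replicate 3 out of the rule gave 155 loci in place of 153, and 136 of the members were among them. Whether this library's tissue differed was not tested.

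To see the drop in a library that had not chosen the loci, the rule was applied 4 times with 1 library at 1.5 dpci left out, and the 150 loci chosen each time were read in that library. In replicate 1, 143 of 150 loci lay below all 16 libraries of the other groups. For replicate 2 the number was 132, for replicate 3 it was 146, and for replicate 4 it was 127. Among all loci with a mean of at least 100, the left-out library lay below the other 16 in 10.8%, 13.7%, 10%, and 9.23% for replicates 1 to 4. The left-out library was thus the lowest in 548 of 600 cases. The 16 other libraries had still taken part in each choice, so these counts bear on the 1.5 dpci libraries alone.

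The size of the drop also carried over to the library left out, with differences between the replicates. The median distance below the lowest other group was 1.51 on the log2 scale in replicate 1, 1.36 in replicate 2, 1.81 in replicate 3, and 1.28 in replicate 4. In the 3 libraries that made each choice the medians were 1.58, 1.65, 1.42, and 1.70. Replicates 1, 2, and 4 were thus less low when left out than the libraries that chose, and replicate 3 was lower. Some left-out values lay above the mean of the lowest other group, in 11 loci for replicate 4 and 4 loci for replicate 2, and in none for replicates 1 and 3. The lowest distances were -3.51 and -1.12 in replicates 4 and 2. When values were divided by library totals, fewer loci met the rule and 394 of 438 left-out cases were lowest.

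**Figure D2:**
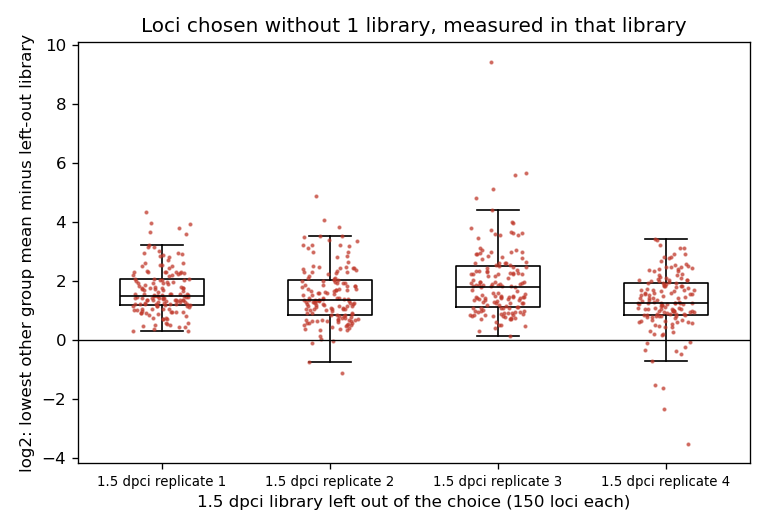
Log2 distance between the lowest other group and the 1.5 dpci library left out of the choice, for the 150 loci chosen without that library. Each point is a locus, boxes give quartiles and median, and whiskers reach 1.5 times the box height. Medians are 1.51, 1.36, 1.81, and 1.28 for replicates 1 to 4, and points below 0 are loci at which the left-out library was above the lowest other group mean.

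The largest differences under the rule and the clearest overshoots are shown in 4 loci. XLOC_062385 had the largest difference of all members, and its libraries differed widely. Its values at 1.5 dpci were 126.0, 22.7, 0, and 188.7 in replicates 1 to 4. In non-injured hearts they were 367.5, 4014, 505.2, and 320.8. Every value at 1.5 dpci was below every other, but the 4 values spread from no read to 225 reads, and non-injured replicate 2 stood far above its group.

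At 3 dpci XLOC_062385 was at 1316, 1399, 3277, and 1861. At 7 dpci it was at 455.8, 1014, 2192, and 2275, and at 14 dpci at 782.0, 900.6, 2303, and 1528. All libraries at 3 dpci were above 3 of the 4 non-injured libraries. The difference of 4.67 fell to 3.08 without replicate 3 at 1.5 dpci, the library with 0 reads, and was 4.03 with a pseudocount of 5. Against non-injured hearts the limma estimate at 3 dpci was 1.39 ± 1.26 (SE, log2), with an adjusted p of 0.480.

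XLOC_027046 came next, with a difference of 3.58, and was low in all 4 libraries. At 1.5 dpci it was at 14.6, 43.1, 19.1, and 35.2, against 1013, 443.4, 392.2, and 411.7 in non-injured hearts. The mean was 20.2 times higher without injury. Leaving out any 1 library at 1.5 dpci kept the difference between 3.33 and 3.83.

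XLOC_027046 then climbed in steps. At 3 dpci its values were 246.2, 549.5, 379.1, and 199.9, which overlapped the non-injured values. At 7 dpci they were 1309, 705.7, 1599, and 584.0, all above those at 3 dpci, and at 14 dpci they were 953.7, 1271, 585.1, and 987.1. The rise from 3 to 7 dpci was 1.60 ± 0.41 on the log2 scale (SE), with an adjusted p of 0.0109 in the limma fit. With the split of the libraries in the model it was 0.86 and did not pass. Neither 3, 7 nor 14 dpci differed from non-injured hearts past the threshold, with adjusted p of 0.240, 0.163, and 0.202 in the same fit.

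XLOC_012508 and XLOC_051798 were named because they rose the most above the non-injured level at 3 dpci. Only members past the threshold at 3 dpci without overlap could be named so, and their adjusted p at that time is no further evidence. XLOC_012508 had values of 117.5, 71.1, 115.2, and 98.1 in non-injured hearts and of 52.1, 47.6, 38.2, and 52.0 at 1.5 dpci. At 3 dpci it was at 237.3, 592.1, 602.6, and 466.8. That these 3 groups did not overlap was fixed by the choice of the locus. Its difference under the rule, 1.05, was close to the limit, and fell to 0.95 without replicate 3 at 1.5 dpci and to 0.99 with a pseudocount of 5.

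XLOC_012508 stayed high, at 355.6, 427.4, 359.0, and 378.5 at 7 dpci and 248.0, 293.8, 320.2, and 373.4 at 14 dpci. Its log2 fold change against non-injured hearts was 2.17 ± 0.24 (SE) at 3 dpci, 1.93 at 7 dpci, and 1.62 at 14 dpci, with adjusted p of 1.74e-06, 3.57e-05, and 0.000319 from limma. These 3 comparisons share the non-injured libraries, and passing at 3 dpci was a condition for naming the locus.

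XLOC_051798 had its highest mean at 3 dpci. It was at 832.3, 714.0, 919.6, and 947.9 in non-injured hearts, and at 329.7, 255.1, 347.4, and 617.2 at 1.5 dpci. At 3 dpci it was at 1377, 3757, 4704, and 2287, so the 4 libraries at this time spread over a wider range than those of any other group. At 7 dpci it was at 1683, 1668, 1296, and 1394, and at 14 dpci at 1167, 1330, 1135, and 1575.

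For XLOC_051798 the change against non-injured hearts was 1.69 ± 0.29 (SE, log2) at 3 dpci, with an adjusted p of 0.000229. Passing at that time was a condition for naming this locus too. The change was 0.82 at 7 dpci and 0.60 at 14 dpci, with adjusted p of 0.0680 and 0.177 in the limma fit. XLOC_051798 was the only member called lower at 7 than at 3 dpci, with a log2 fold change of -0.86 and an adjusted p of 0.0433. That call held in 9 of 20 alternatives.

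**Figure D3:**
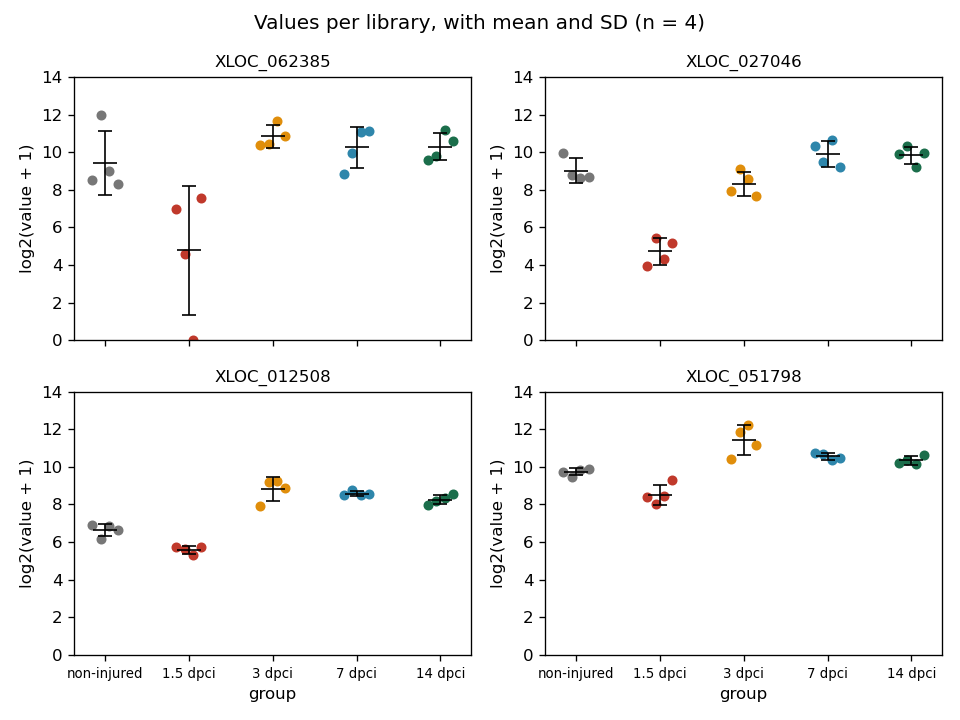
The 4 named loci in all 20 libraries, as log2(value + 1). Points are libraries, in the order of their replicate number, and black marks are the mean and SD of 4 libraries. XLOC_062385 has the widest spread at 1.5 dpci. XLOC_012508 and XLOC_051798 lie at 3 dpci above all non-injured libraries, which was a condition for naming them.

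The return toward the non-injured level was then followed over time. The rule itself placed every member at least 1 above its 1.5 dpci mean on the log2 scale in each later group, so only the position relative to non-injured hearts is of interest. The mean at 1.5 dpci, one of the values that chose the loci, was taken as 0% and the non-injured mean as 100% of the log2 distance for each locus. At 3 dpci the members stood at a median of 80.6% of this distance, from 39.2% to 306.4%. The mean reached or passed the non-injured mean in 52 of the 150 (34.7%), where 47.2% of all 16199 loci were above it, and 11 had covered less than 50%. At 7 dpci the median was 110.3% and 88 members (58.7%) were at or above the non-injured mean, against 45.5% of all 16199 loci. At 14 dpci it was 110.9% and 96 members (64%) were at or above it, against 49.8%.

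**Figure D4:**
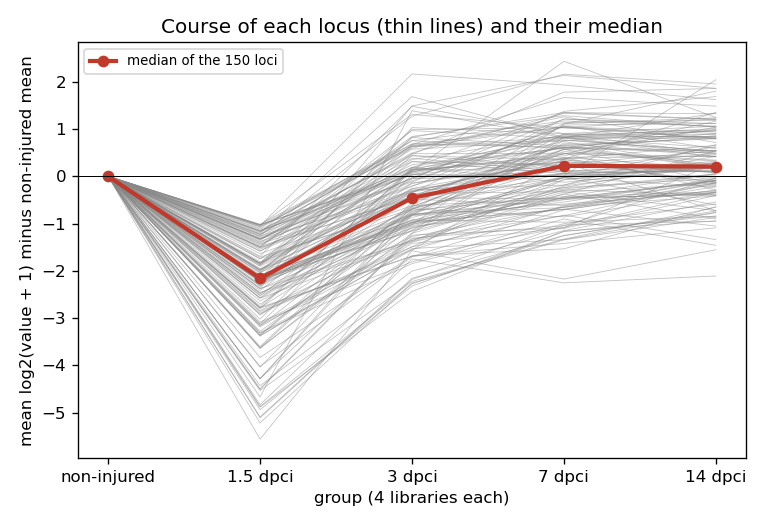
Mean log2(value + 1) of each of the 150 loci in each group minus its non-injured mean (thin lines), and the median over loci (thick line). The low point at 1.5 dpci was fixed by the choice of loci. After it the median stands at -0.46, 0.22, and 0.21 for 3, 7, and 14 dpci, and the lines fan out on either side of 0.

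Which group came closest to the low point differed between loci. The lowest group after 1.5 dpci was 3 dpci in 88 members, the non-injured group in 50, 7 dpci in 7, and 14 dpci in 5. The highest group was the non-injured one in 47 members, 14 dpci in 45, 7 dpci in 43, and 3 dpci in 15. These ranks rest on means of 4 libraries, and whether the course after the drop differed between loci was not tested. Shares over all loci are not given for them, so the counts are not read as particular to the members.

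The comparisons between the other 4 groups ask how far the loci had come back. Their fold changes leave out the 1.5 dpci libraries. Their SE and p-values do not, as the spread was estimated over all 20 libraries. The rule set the same lower limit to all of these 4 groups, so it used their libraries too. It did not rank the 4 groups against each other. All tests were fitted on the 62594 loci with a value above 0 in any library, by limma on log2(value + 1) with Benjamini-Hochberg adjustment and a threshold of 0.05. For the contrast that the rule did use, 1.5 dpci against non-injured, 149 members were called lower, against 10.1% of all tested loci, and nothing is read from that count.

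At 3 dpci, 54 of the 150 members (36.0%) were lower than in non-injured hearts, and 10 (6.67%) were higher. Of all tested loci 10.4% were lower and 12.9% higher, and of those with a mean of at least 100, 23.2% were lower and 18.7% higher. The members' share of lower calls was thus above both backgrounds and their share of higher calls below both. Their median log2 fold change was -0.46, against 0.02 over all tested loci, and single members ranged from -2.44 to 2.17. Dividing values by library totals moved the median of all loci to 0.25. The calls then changed to 35 lower (23.3%, against 6.28% of all tested loci) and 27 higher (18%, against 19.1%). Of loci with a mean of at least 100, 14.1% were lower and 32.6% higher on that scale. The number of higher calls changed when 1 library was left out. It was 6 without non-injured replicate 2 or 4 or 3 dpci replicate 3, and 17 without 3 dpci replicate 1. Here and below, shares over all tested loci are not given for fits without 1 library, to 8 or 19 libraries, by edgeR or with a replicate block. Counts from these fits do not tell a change in the members from a change in all loci. When the controls were non-injured replicates 1 and 2 alone 37 (24.7%) were lower, against 9.27% of all tested loci. With only replicates 3 and 4 there were 47 (31.3%), against 8.39%. Of loci with a mean of at least 100, 17.5% were lower with replicates 1 and 2, and 20.5% with replicates 3 and 4.

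The levels of the loci called lower, called higher and not called at 3 dpci are given as a description. For the 54 called lower, the median group mean was 955 in non-injured hearts, 119 at 1.5 dpci, 335 at 3 dpci, 528 at 7 dpci, and 754 at 14 dpci. For the 86 loci past the threshold in neither direction it was 298, 81.3, 308, 442, and 411 in the same order. For the 10 called higher it was 156, 45.0, 404, 376, and 329. These 3 classes were cut by the 3 dpci and non-injured values, so their position relative to non-injured hearts is partly fixed, and no difference in course was tested. Levels depend on the length of a locus and are compared only between times.

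At 7 dpci calls went in both directions. Against non-injured hearts 27 members (18.0%) were higher and 21 (14.0%) were lower, where 6.43% and 5.45% of all tested loci, and 9.59% and 8.32% of those with a mean of at least 100, were called. Both shares were above the backgrounds. With 1 member kept for each run of neighbouring locus numbers, 129 loci remained. Of these, 25 (19.4%) were higher and 14 (10.9%) lower, and the share of lower calls was then nearer the 8.32%. The median log2 fold change was 0.22, against 0 over all tested loci, and the range was -2.26 to 2.43. With values divided by library totals the calls were 37 higher (24.7%, against 7.36% of all tested loci) and 18 lower (12%, against 3.84%). Of loci with a mean of at least 100, 12.3% were higher and 5.34% lower on that scale.

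These calls depended on the side of the split on which the controls lay. When the controls were non-injured replicates 1 and 2 alone, which lie on the side of the 7 dpci libraries, 10 members (6.67%) were higher and 3 (2%) lower, against 1.65% and 0.591% of all tested loci. With replicates 3 and 4 as the only controls, 28 (18.7%) were higher and 21 (14%) lower, against 10.5% and 8.90%. With the split in the model there were 10 (6.67%) and 5 (3.33%), against 1.73% and 0.623%. Of loci with a mean of at least 100, 3.13% were higher and 0.710% lower with replicates 1 and 2. These shares were 12.6% and 11.9% with replicates 3 and 4, and 3.33% and 0.821% with the split in the model. Fewer loci of all kinds were thus called with replicates 1 and 2. The members' shares were above both backgrounds in each of these fits, but 14% lower with replicates 3 and 4 was near the 11.9%. Without non-injured replicate 4 the higher calls numbered 16, and in a fit to the 8 libraries of this comparison the lower calls numbered 13.

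At 14 dpci members were more often higher than lower. Against non-injured hearts 30 (20%) were higher and 9 (6%) lower, against 5.88% and 6.63% of all tested loci, and 7.78% and 9.03% of those with a mean of at least 100. The share of higher calls was above the backgrounds and that of lower calls below them. The median log2 fold change was 0.21, against 0 over all tested loci, with members between -2.11 and 2.04. When the controls were non-injured replicates 1 and 2 alone, 6 (4%) were higher and 2 (1.33%) lower, against 0.826% and 0.810% of all tested loci. With the split in the model 7 (4.67%) were higher and 2 (1.33%) lower, against 0.883% and 0.885%. With non-injured replicates 3 and 4 alone, 28 (18.7%) were higher and 10 (6.67%) lower, against 10.2% and 9.996%. Of loci with a mean of at least 100, 1.46% were higher and 1.07% lower with replicates 1 and 2. These shares were 1.59% and 1.22% with the split, and 11.8% and 12.2% with replicates 3 and 4. The members' share of higher calls was above both backgrounds in all of these fits. Among them, that of lower calls was below both only in the fit to all libraries and with replicates 3 and 4. The lower calls numbered 4 without non-injured replicate 3 and 5 without 14 dpci replicate 2, 3 or 4.

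Between 3 and 7 dpci the movement was upward. In this comparison, whose fold changes use no non-injured library, 44 members (29.3%) were higher at 7 dpci and 1 (0.667%) was lower. Of all tested loci 8.44% were higher and 9.31% lower, and of those with a mean of at least 100, 13% and 10.1%. The median log2 fold change of the members was 0.58, against -0.02 over all tested loci, and the members' range was -0.86 to 2.33. Of the 150, 125 (83.3%) were above 0. The share above 0 was 46.9% over all tested loci and 51.5% over those with a mean of at least 100.

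The number of loci called higher between 3 and 7 dpci depended on the model. All libraries at 3 dpci lie on one side of the split and all at 7 dpci on the other. With the split in the model, only the non-injured libraries separate it from time. There, 1 member (0.667%) was called higher, as were 0.107% of all tested loci and 0.290% of those with a mean of at least 100. The members' median log2 fold change was 0.62 in that fit, against -0.04 over all tested loci. This value too rests on the non-injured libraries to separate the split from time. Library totals gave 30 (20%), against 6.48% of all tested loci and 8.78% of those with a mean of at least 100. The members' median was 0.42 on that scale. The number was 28 without 3 dpci replicate 4, 7 dpci replicate 1 or 7 dpci replicate 2, and 29 with edgeR on the recovered reads, which leaves out 7 dpci replicate 1.

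**Figure D5:**
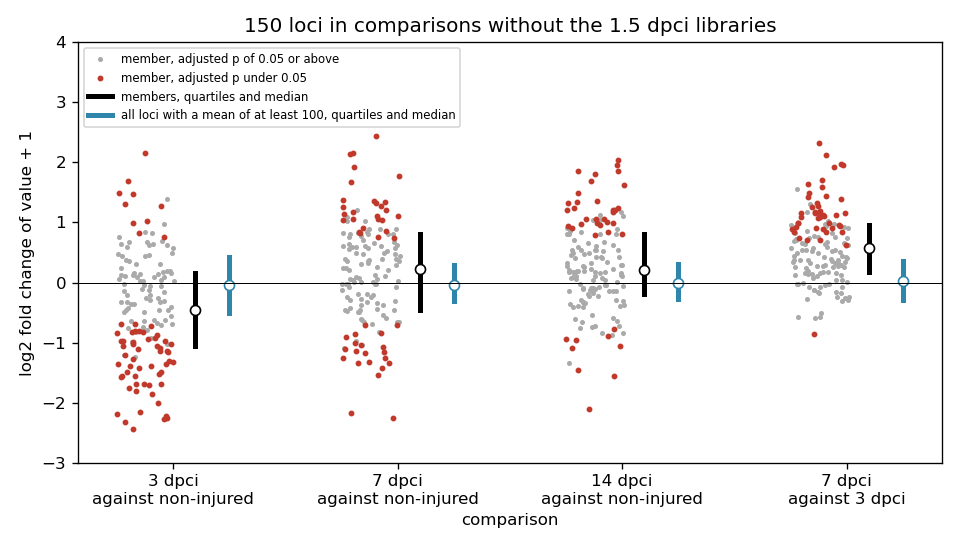
Log2 fold change of each of the 150 loci in 4 comparisons (points, coloured where the adjusted p from limma is under 0.05), with the quartiles and median of the members (black) and of all 16199 loci with a mean of at least 100 (blue). The members' medians are -0.46, 0.22, 0.21, and 0.58 from left to right, and the blue medians lie close to 0.

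Members varied more between libraries of one group than other loci. The median SD of log2(value + 1) within a group was 0.36 in non-injured hearts, 0.38 at 1.5 dpci, 0.37 at 3 dpci, 0.42 at 7 dpci, and 0.32 at 14 dpci. Over all 16199 loci it was between 0.21 and 0.25 in these groups. For the 74 members with a mean between 173 and 1104, the quartiles of the members, it was from 0.34 to 0.40, against 0.21 to 0.25 for the 9030 loci in that range. The gap was thus seen within this range of means too. Loci were matched on the mean over 20 libraries and not on the level within a group. At 1.5 dpci the median member was at 6.42 on the log2 scale, against 8.82 for all 16199 loci. Loci with neighbouring numbers were each counted.

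Part of the spread was shared, as many members were low in the same library at 7 dpci and in the non-injured group. At 7 dpci, replicate 4 was the lowest of its group in 100 of the 150 members, against 31.2% of all loci with a mean of at least 100. In the non-injured group replicate 2 was the lowest in 82 members, against 38.1%. At 3 dpci replicate 1 was the lowest in 76 of the 150, which is near the share of 44.2% over all these loci. All 150 members were counted here, so loci with neighbouring numbers each add to these counts. At 14 dpci no library stood out, with 29 to 43 members lowest in each. What set these libraries apart was not tested.

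The non-injured libraries did not split the members in one direction. In 27 members both non-injured replicates 1 and 2 were above replicates 3 and 4, and in 31 both were below. For all loci with a mean of at least 100 these shares were 18.0% and 22.5%. A pattern noticed after the values were seen lay within 7 dpci. There, 20 members (13.3%) were over 1 higher on the log2 scale in replicates 1 and 2 than in replicates 3 and 4, and 4 were over 1 lower, against 2.17% and 3.13% of all loci with a mean of at least 100. With 1 member kept for each run of neighbouring locus numbers, the count was 13 of 129 higher and 4 lower.

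Part of the list consisted of neighbours. Of the members, 32 fell into 11 runs in which locus numbers were at most 3 apart, and the longest run held 8 members. The numbers of a merged assembly follow the genome, so neighbouring numbers may be pieces of one transcript, which was not tested because positions were not read. The 13 pairs with consecutive numbers had a median correlation of 0.92 between their deviations from the group means over the 20 libraries, from 0.03 to 0.97. The median over all 11175 pairs of members was 0.20. Loci are not independent replicates, and these values are a description.

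The 8 loci of the longest run moved alike. They had means of 247.8 to 1663 in non-injured hearts and 53.9 to 374.5 at 1.5 dpci. At 3 dpci they were at 112.4 to 847.7, at 7 dpci at 265.6 to 1828, and at 14 dpci at 305.0 to 1935. All 8 were called lower at 3 dpci than in non-injured hearts, with log2 fold changes from -1.16 to -0.87, and 4 were called higher at 7 than at 3 dpci. With 1 member kept for each run 129 loci remained. Of these, 39 (30.2%) were lower and 10 (7.75%) higher at 3 dpci than in non-injured hearts, against 10.4% and 12.9% of all tested loci. The shares over loci with a mean of at least 100 were 23.2% and 18.7%. At 7 against 3 dpci, 35 (27.1%) were higher and 1 (0.775%) lower, against 8.44% and 9.31%.

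On the deposited values, more loci were lowest at 1.5 dpci than at any later time. The conditions of no overlap and of the difference were turned to each of the other groups, before the limit of 150. They found 133 loci lowest in non-injured hearts, 30 at 3 dpci, 1 at 7 dpci, and 27 at 14 dpci, against 153 at 1.5 dpci. In the upward direction, 42 loci were highest in non-injured hearts, 54 at 1.5 dpci, 83 at 3 dpci, 1 at 7 dpci, and 9 at 14 dpci. Division by library totals left 101 loci lowest at 1.5 dpci. Counts for the other groups on that scale are not given. These counts are descriptions without a test.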

How the data were processed

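RNA libraries were made from pooled ventricular apexes with a stranded total RNA kit, 4 libraries per group and 20 in all. The paper's results also name 21 dpci for sequencing, but its sequencing methods do not, and none of the 20 libraries is from that time. Alignment by the authors used GRCz10 with Ensembl 90, followed by Cufflinks, Cuffmerge and Cuffdiff. The deposited signal is the number of reads per locus divided by 1 size factor per library. The authors name FPKM, but these values are not divided by length. The value of 1 read was found from the low values of each column. In 19 libraries all values of up to 20 reads were whole within 0.1 read. For 7 dpci replicate 1 only normalized values were used, so it stayed out of the tests on reads. This unit called for limma on log2 values and not for a count test, as the design provided. Columns of other samples numbered 0. The gene names were not used because they are out of step with the rows, and 88 of the members stand on rows with a name.

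The rule was applied to the deposited values. Groups were compared on log2(value + 1) with the functions lmFit and eBayes (robust, with a trend) of limma 3.58.1 in R 4.3.3, in one model of 5 groups and 20 libraries over 62594 loci. Adjustment was by Benjamini-Hochberg over all of them, with a threshold of 0.05. At low values this scale makes fold changes too small. The script was tested on simulated data. Alternatives were TMM, quantile and library-total scaling, pseudocounts of 0.1 and 5, fits to 8 libraries, a replicate block, the split of the first principal component as a term, each library left out, edgeR 4.0.16 on recovered reads, other minimum means for the rule, and, added after seeing the data, 1 side of the split as controls, limma on 19 libraries, 1 member per run of neighbours, and other scalings of the left-out counts.

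The members and the tests were chosen with earlier results of these data known. Named loci were the 2 with the largest difference under the rule and the 2 with the largest rise at 3 dpci that passed the threshold without overlap. Figures were drawn with matplotlib 3.10.9 and tables made with pandas 2.3.3.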

Additional observations from a re-analysis of the deposited data

Results flagged for a closer look

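One named locus had a library far from the others of its group. XLOC_027046 was at 9.99 on the log2 scale in non-injured replicate 1 and between 8.62 and 8.80 in the other 3, a gap of 0.871 of the group's range. Chance gives such a gap in about 5% of groups, or 1.5 of the 30 groups of values tested. Over all members, it was seen in 9 of 150 for the non-injured group, 10 at 1.5 dpci, 10 at 3 dpci, 9 at 7 dpci, and 7 at 14 dpci, which is close to that share.

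The level differed between 3 and 7 dpci in 45 members by the test of 7 against 3 dpci in limma. Of these, 44 were higher at 7 dpci, or 29.3% of the members. The shares over all tested loci and over those with a mean of at least 100 were 8.44% and 13%. XLOC_051798 was the 1 that was lower (0.667%, against 9.31%). With the split in the model 1 member was called higher.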

How the results depend on the processing

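Of 203 alternative counts, 163 stayed within 1.5 times the reported one. They include counts tied to the rule: members lower at 1.5 dpci than in non-injured hearts, loci that met the rule, and left-out cases. The number is thus no measure of how firm the other comparisons between groups were. Division by library totals gave 27 members higher and 35 lower in the comparison of 3 dpci with non-injured hearts, 2 lower at 7 than at 3 dpci, and 101 loci under the rule, all of them members. After this division, the median log2 fold change of all tested loci against non-injured hearts was 0.25 for 3 dpci and 0.38 for 1.5 dpci. For 7 against 3 dpci it was -0.17. The deposited values gave 0.02, 0.09, and -0.02 in the same order. With the split in the model, higher and lower calls numbered 10 and 5 at 7 dpci, 7 and 2 at 14 dpci, and 1 and 0 between 3 and 7 dpci. When the controls were non-injured replicates 1 and 2 alone they numbered 10 and 3 at 7 dpci and 6 and 2 at 14 dpci. Fits to the 8 libraries compared gave 13 lower at 7 dpci, and 0 lower between 3 and 7 dpci. For that last comparison edgeR on the recovered reads gave 29 higher, and limma on 19 libraries gave 28 higher and 0 lower.

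Leaving out 1 library gave 6 to 17 members higher and 41 to 55 lower at 3 dpci, 16 to 31 higher and 15 to 26 lower at 7 dpci, and 21 to 35 higher and 4 to 13 lower at 14 dpci, each against non-injured hearts. Between 3 and 7 dpci it gave 28 to 56 higher and 0 to 2 lower. The rule was met by 155 to 201 loci without 1 library at 1.5 dpci, by 203 with a minimum mean of 50, and by 107 with one of 200. Shares over all tested loci are not given for the fits without 1 library, and the cause of these changes was not tested.

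Replicate numbers did not pair the libraries. The correlation between libraries of the same number ran from -0.33 to 0.37 over 40 pairs, and 1 of 20 libraries correlated best with its own number. With a replicate block 8 were higher and 54 lower at 3 dpci, 27 and 21 at 7 dpci, 30 and 9 at 14 dpci, and 42 and 0 between 3 and 7 dpci. Depth limits the 4 members with 3 reads or fewer in a library at 1.5 dpci.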
